A study of Mus musculus with 10 samples.

Results

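The genes described here are 41 genes of glucose use and of the response to low oxygen: 16 enzymes of glycolysis, 4 transporters of glucose and lactate, 4 kinases that set glycolytic flux, 4 oxygen sensors and hypoxia-inducible factors, 3 mitochondrial genes, 2 secreted factors and 8 other hypoxia-induced genes. They were listed by symbol, with earlier results of these data already known. All 41 were found among the 22878 gene symbols of the series, and each is described by the transcript with the highest mean read count. PolyA RNA was sequenced from R1 mouse ES cells that carried a lentiviral shRNA, in the control line against luciferase (named shLuc) and in the knockdown line against Smyd5 (named shSmyd5), the gene of a histone lysine methyltransferase. Both lines were measured as ES cells and as embryoid bodies (EBs, aggregates in which ES cells differentiate into many cell types) at 24 h and at days 6, 10 and 14, with 1 library per line and stage. The cells of both lines had been infected and selected, and before RNA was taken both ES cell lines had been grown on gelatin with the GSK3 inhibitor CHIR9901 to rid them of feeder cells. EBs were formed in low attachment dishes without LIF. The oxygen level of the cultures is not given in the sources used here. In such bulk samples fewer cells of a type and less RNA per cell cannot be told apart.

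Glycolysis turns glucose into pyruvate in a chain of cytosolic enzymes, and lactate dehydrogenase then turns pyruvate into lactate, which leaves the cell through monocarboxylate transporters. When oxygen is low, the prolyl hydroxylases of the Egln family no longer mark the hypoxia-inducible factors HIF1α and HIF2α for destruction, and these factors bind hypoxia response elements and raise the transcription of most glycolytic enzymes, of glucose transporters, of Vegfa and of mitophagy genes such as Bnip3. Pluripotent cells are known for a high rate of glycolysis, and the inner cells of large EBs receive less oxygen than the outer ones.

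A library held between 3895537 reads in genes (ES cells of the control line) and 43377814 (day 6 of the control line), and RPKM is the read count relative to the length of the transcript and the size of the library. Smyd5 itself was lower in the shSmyd5 library at every stage, with RPKMs of 29.7 and 4.51 in ES cells, 10.7 and 0.891 in 24 h EBs, 15.4 and 0.492 at day 6, 24.95 and 9.14 at day 10, and 13.1 and 6.88 at day 14 (shLuc first). Folds between the lines moved with the GC content of the transcripts: the rank correlation across genes, which are not independent replicates, was -0.68 for the ES cell pair, 0.58 for 24 h EBs, then -0.02, -0.39 and 0.32 for days 6, 10 and 14. The median GC content was 53.8% for the 16 glycolytic enzymes, 50.4% for the other 25 members and 50.5% for all genes that reached an RPKM of 3 in a library. Folds from which an additive trend on GC content and transcript length was removed, called freed folds, are therefore given for some of the genes and counts below. The fitted trend included a constant, so freed folds are also less the mean fold of the genes fitted. The summed RPKM of 7 pluripotency markers went from 3121 in shLuc and 2445 in shSmyd5 ES cells to 118 and 55.9 at day 14, and that of 7 fibroblast and feeder cell markers was 6.47 and 6.10 in ES cells.

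The enzymes of glycolysis together had an RPKM of 1951 or more in every library except that of the control EBs of 24 h. Their summed RPKM in shLuc was 2977 in ES cells and 855 in 24 h EBs, then 3525, 3104 and 1951 in EBs of days 6, 10 and 14. In shSmyd5 it was 3114, 2295, 3292, 2716 and 2120 in the same order, in which all series of 5 values below are given. The sums of the 2 lines were farthest apart at 24 h, where the shLuc library held the lowest of all 10. Aldoa, the aldolase that splits the 6-carbon sugar (chr7:133938748-133944265, minus strand, mm9), had the highest RPKM of the enzymes in 8 of the 10 libraries, 718, 116, 965, 769 and 518 in shLuc and 878, 562, 981, 714 and 609.8 in shSmyd5. Ldha, the lactate dehydrogenase subunit that favours lactate (chr7:54096845-54110997, plus strand), had 481, 138, 748, 649 and 389.7 in shLuc and 495, 512.7, 869.8, 587 and 426 in shSmyd5. Both were lowest in the shLuc library of 24 h, and apart from it the ranges of the 2 lines overlapped.

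**Figure D1:**
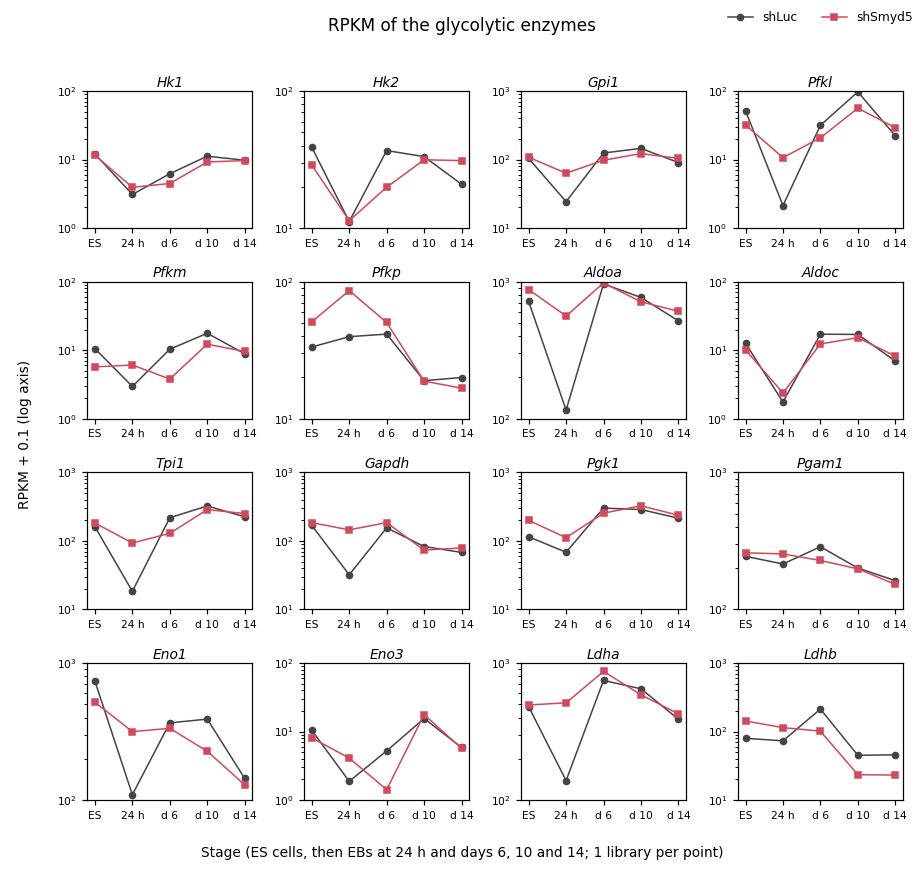
RPKM plus 0.1 (log axis) of the 16 glycolytic enzymes from ES cells through the 4 EB stages (24 h, days 6, 10 and 14), with 1 library per point, shLuc in grey circles and shSmyd5 in red squares. Aldoa, Tpi1, Gapdh, Eno1 and Ldha dip in the shLuc library of 24 h (Gapdh at 31.9) and less or not at all in the shSmyd5 library (144.9).

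The upstream enzymes were present at lower levels. Hk2, the inducible hexokinase (chr6:82675019-82724448, minus strand), had RPKMs of 38.7, 11.1, 36.7, 33.2 and 20.8 in shLuc and 28.7, 11.2, 19.8, 31.4 and 30.98 in shSmyd5, and Hk1, the more widely expressed hexokinase, stayed between 2.99 and 11.98 in all libraries. Pfkl, the liver type subunit of phosphofructokinase (chr10:77449692-77472828, minus strand), had 51.7, 2.03, 31.5, 97.5 and 22.2 in shLuc and 31.9, 10.6, 20.7, 56.3 and 29.1 in shSmyd5. Pfkp, the platelet type subunit, was not lower at 24 h than in ES cells in either line, with 33.3, 39.6, 41.4, 18.9 and 19.9 in shLuc and 50.9, 86.2, 50.4, 18.7 and 16.6 in shSmyd5. Pfkm, the muscle type subunit, lay between 2.86, in the shLuc library of 24 h, and 17.6. Of these 3 subunits, which can form mixed tetramers, Pfkp had the highest RPKM at 24 h and Pfkl at day 10, in both lines.

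Of the lower glycolytic enzymes, Tpi1, triosephosphate isomerase (chr6:124760604-124764314, minus strand), had RPKMs of 161, 18.2, 218, 324 and 225 in shLuc and 182, 93.1, 129, 286 and 251 in shSmyd5. Gapdh, the dehydrogenase that makes NADH and a common reference gene (chr6:125111871-125116485, minus strand), had 168, 31.9, 155, 82.7 and 67.8 in shLuc and 185, 145, 185, 73.1 and 78.9 in shSmyd5. In neither line was Gapdh constant: its lowest and highest RPKM were 31.9 and 168 in shLuc, and 73.1 and 185 in shSmyd5. Eno1, the main enolase (chr4:149610830-149622988, plus strand), had 738, 109, 366, 389.9 and 144 in shLuc and 518, 316, 334, 227 and 129 in shSmyd5, and in shSmyd5 its lowest value was that of day 14. Ldhb, the subunit that favours pyruvate (chr6:142438769-142456477, minus strand), had 79.7, 73.1, 213, 44.9 and 45.7 in shLuc and 143, 114, 101, 23.3 and 23.04 in shSmyd5, with shSmyd5 above shLuc in ES cells and at 24 h and below it at days 6, 10 and 14. Pgk1 and Pgam1, the kinase and mutase of 3-phosphoglycerate, lay between 68.1 and 326 and between 152 and 286. Gpi1, glucose phosphate isomerase, lay between 24.2 and 145.8, while the muscle enolase Eno3 and the brain aldolase Aldoc stayed under 18 in all libraries. Gapdh, Ldha, Pgam1 and other glycolytic genes have processed pseudogenes whose near-identical sequence can take or lend reads, so their levels are uncertain in that respect.

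The change over differentiation that both lines shared was tested with edgeR's quasi-likelihood test over the 12277 genes whose mean RPKM reached 1, with the line as a block and Benjamini-Hochberg adjustment. The 2 lines stand for the spread at a stage, and p-values then measure only the spread between these libraries. Levels differed between the 5 stages for 65.3% of all genes tested, for 10 of the 16 enzymes and for 20 of the 23 other members tested. Against ES cells, 5 enzymes fell and none rose by day 14 (20.6% of all genes fell and 25.6% rose): Eno1 by a log2 fold of -2.30 (SE 0.46, adjusted p = 0.0026), Ldhb by -1.89 (SE 0.48, adjusted p = 0.0094), Gapdh by -1.37, Pfkp by -1.25 and Pgam1 by -0.78. At day 10, 3 enzymes fell (Ldhb, Gapdh and Pfkp) and none rose, where 15.6% of all genes fell and 20% rose. At day 6 Pgk1 rose by 1.07 (SE 0.31, adjusted p = 0.021) and Hk1 fell by 0.96 on the log2 scale, where 23.6% of all genes rose and 18.4% fell.

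In 24 h EBs 4 enzymes fell against ES cells and none rose (14.2% and 15.8% of all genes): Pfkl by a log2 fold of -2.40 (SE 0.61, adjusted p = 0.017), Aldoc by -2.10, Hk1 by -1.36 and Hk2 by -1.16. A fit without the shLuc library of 24 h gave log2 folds of -1.46 for Pfkl, -1.94 for Aldoc, -1.24 for Hk1 and -1.20 for Hk2. In that fit 24 h EBs are represented by the shSmyd5 library alone and have no spread of their own, so only these folds are given. Eno1 (-1.19), Tpi1 (-1.37) and Aldoa (-1.03) had adjusted p-values of 0.069, 0.069 and 0.12 in the fit of all libraries.

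The 25 members outside the enzyme chain had a summed RPKM of 613, 377, 1566, 2092 and 1425 in shLuc and 591, 664, 1867, 2571 and 1926 in shSmyd5, higher from day 6 on than in ES cells in both lines. In ES cells most of this sum came from the 4 transporters of glucose and lactate (433 of 613 in shLuc). Slc2a1, the glucose transporter GLUT1 (chr4:118781316-118809935, plus strand), had 122, 48.7, 420.3, 449 and 273 in shLuc and 115, 151, 411, 495 and 338 in shSmyd5. Slc2a3, the neuronal type glucose transporter GLUT3 (chr6:122677827-122751658, minus strand), had 243, 55.6, 279, 721 and 245 in shLuc and 172, 67.99, 193, 891 and 388 in shSmyd5, and peaked at day 10 in both lines. Of the lactate transporters, Slc16a1 (MCT1, chr3:104442591-104462385, plus strand) had 35.4, 30.5, 86.8, 209 and 163 in shLuc and 25.8, 26.6, 180.1, 373 and 226 in shSmyd5, and Slc16a3 (MCT4, the exporter of glycolytic cells, chr11:120809794-120822182, plus strand) had 33.4, 1.24, 38.4, 82.8 and 30.6 in shLuc and 13.7, 14.7, 41.02, 54.7 and 40.3 in shSmyd5. The shLuc value of Slc16a3 at 24 h stood far below its other 9 values, which began at 13.7.

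**Figure D2:**
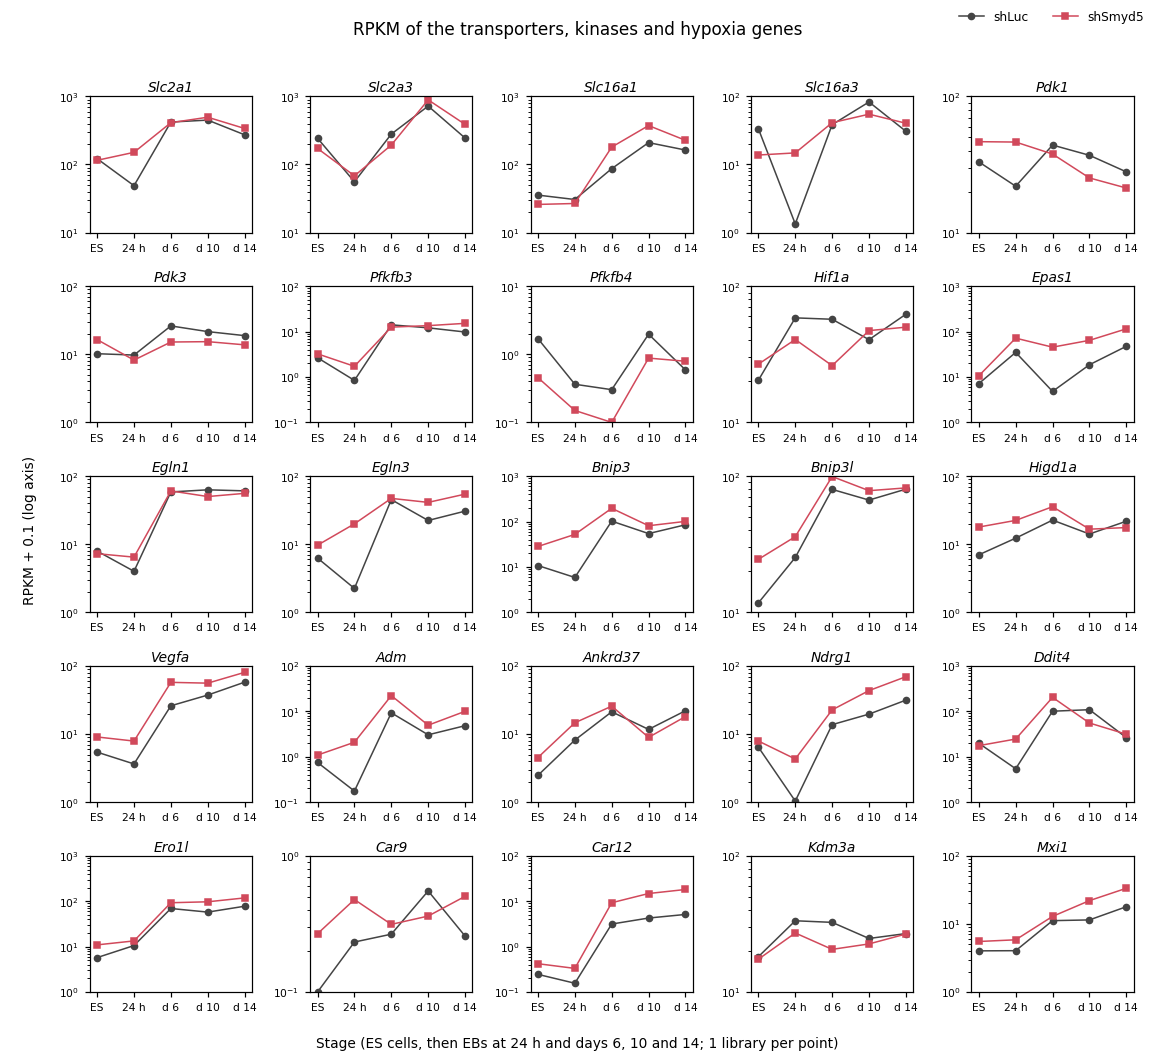
RPKM plus 0.1 (log axis) of the 25 other members from ES cells through the 4 EB stages (24 h, days 6, 10 and 14), with 1 library per point, shLuc in grey circles and shSmyd5 in red squares. Egln1, Bnip3, Vegfa, Ero1l and Car12 are higher at days 6 to 14 than in ES cells in both lines, and Epas1 and Vegfa are higher in shSmyd5 at each stage; Pfkfb4 and Car9 stay under an RPKM of 3.

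By day 14, 16 of the 23 other members tested had risen against ES cells and none had fallen, where 25.6% of all genes rose and 20.6% fell. The count was 17 risen and none fallen at day 10 (20% and 15.6% of all genes), and 16 and none at day 6 (23.6% and 18.4%). Car12, a membrane-bound carbonic anhydrase, rose by a log2 fold of 5.52 by day 14 (SE 0.45, adjusted p = 3e-05). Ero1l, the oxidase of disulfide bond formation in the endoplasmic reticulum (chr14:45902879-45938237, minus strand), rose by 3.49 (SE 0.34, adjusted p = 5.3e-05), and Vegfa, the growth factor of blood vessels (chr17:46153942-46169326, minus strand), by 3.22 (SE 0.35, adjusted p = 9.2e-05). Egln1, the main oxygen-sensing prolyl hydroxylase, rose by 2.86, and Egln3, its hypoxia-induced relative, by 2.31. Bnip3 and Bnip3l, receptors that mark mitochondria for mitophagy, rose by 2.40 and 2.13. The risers also included Adm (adrenomedullin, a vasodilating peptide; 3.14), Ndrg1 (a stress-response protein; 2.61), Slc16a1 (2.52), Ankrd37 (2.44), Mxi1 (an antagonist of MYC; 2.30), Pfkfb3 (a kinase that makes the activator of phosphofructokinase; 2.00), Slc2a1 (1.24) and Hif1a (1.11).

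At 24 h the same comparison gave 6 members higher than in ES cells, which were Epas1 (2.95), Ankrd37 (2.08), Hif1a (1.46), Bnip3l (1.21), Kdm3a (1.19) and Ero1l (1.02), and 2 lower, which were Slc2a3 and Ndrg1 (both -1.33), of 23 tested. Among all genes 15.8% were higher and 14.2% lower. Without the shLuc library of 24 h, the log2 folds were 2.27 for Ankrd37, 1.33 for Egln3 and 2.39 for Epas1. These rest on the shSmyd5 library alone at 24 h. Epas1 encodes HIF2α and Hif1a encodes HIF1α. Hif1a (chr12:75002362-75048517, plus strand) had RPKMs of 20.3, 58.5, 57.1, 40.5 and 62.3 in shLuc and 26.7, 40.5, 26.02, 47.2 and 49.97 in shSmyd5, with no steady order of the lines.

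More members were 2-fold apart between the lines in 24 h EBs than at any other stage, all in 1 direction. A log2 fold is the difference, shSmyd5 less shLuc, of log2(RPKM + 0.1). A gene was tested where either library reached an RPKM of 3 and was called at 2-fold. At 24 h, 19 of the 35 members tested were higher in shSmyd5 and none was lower, where 13.0% of all 8354 genes tested were higher and 4.26% lower. The calls were 10 of 15 glycolytic enzymes and 9 of 20 other members. The median log2 fold was 1.13 for the enzymes and 0.86 for the others, against 0.17 for all genes tested. These folds compare 1 library with 1 library, and the interval given beside each is an exact binomial (Clopper-Pearson) 95% interval of the reads that covers counting error only.

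Of the enzymes, Tpi1 had RPKMs of 18.2 in shLuc and 93.1 in shSmyd5 at 24 h, a log2 fold of 2.35 (2.22 to 2.47). Pfkl had 2.03 in shLuc and 10.6 in shSmyd5, a log2 fold of 2.33 (2.09 to 2.57), and Aldoa 116 in shLuc and 562 in shSmyd5, a log2 fold of 2.28 (2.23 to 2.33). Gapdh, with 31.9 in shLuc and 145 in shSmyd5, had a log2 fold of 2.18 (2.07 to 2.29). Ldha (1.89, 1.84 to 1.93), Eno1 (1.53, 1.48 to 1.58), Gpi1 (1.38), Eno3 (1.13), Pfkp (1.12) and Pfkm (1.04) made up the 10. They act between glucose phosphate and lactate, as do Pgk1 (0.71), Ldhb (0.64) and Pgam1 (0.24), which were not called. Aldoc (0.44), of the same stretch, was below the RPKM limit. Both hexokinases (Hk1 0.35, Hk2 0.02) and Pgam1 lay near the median of all genes.

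Among the other members, Slc16a3 had 1.24 in shLuc and 14.7 in shSmyd5 at 24 h, a log2 fold of 3.47 (3.12 to 3.83). Egln3 (chr12:55279968-55304847, minus strand) had 2.14 in shLuc and 19.8 in shSmyd5 and a log2 fold of 3.15 (2.89 to 3.43), and Bnip3 (chr7:146082519-146101202, minus strand) had 5.75 in shLuc and 51.96 in shSmyd5 and 3.15 (2.95 to 3.36). Ddit4, an inhibitor of mTORC1 that stress induces, had 5.35 in shLuc and 24.5 in shSmyd5 and a log2 fold of 2.17 (1.95 to 2.40). Ndrg1 (2.05, 1.67 to 2.45), Slc2a1 (1.63, 1.57 to 1.69), Vegfa (1.12), Pdk1 (1.08; the kinase that turns off pyruvate dehydrogenase) and Epas1 (1.04) completed the 9. Adm was below the RPKM limit, with 2 reads in shLuc and 115 in shSmyd5, RPKMs of 0.0754 in shLuc and 1.99 in shSmyd5 and a log2 fold of 3.57 (2.45 to 4.28). Hif1a (-0.53, -0.58 to -0.48), Kdm3a (-0.30; a histone demethylase), Pdk3 (-0.25; a second kinase of pyruvate dehydrogenase) and Slc16a1 (-0.19) were the 4 members with a fold below 0.

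**Figure D3:**
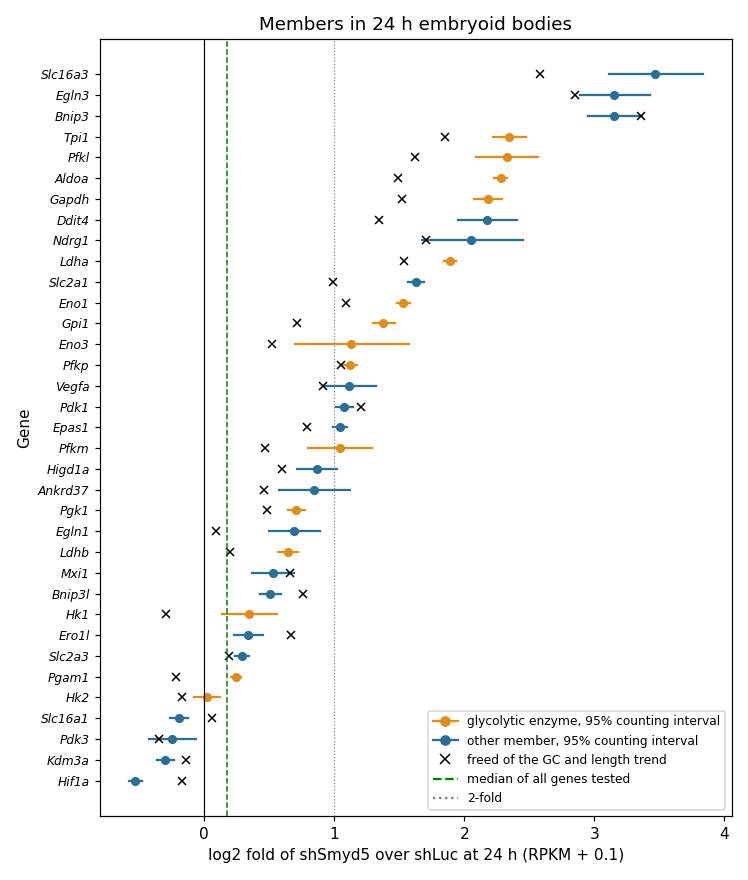
The log2 fold of shSmyd5 over shLuc (on RPKM plus 0.1) in 24 h EBs for the 35 members tested, with exact binomial 95% intervals that cover counting error only, glycolytic enzymes in orange and other members in blue; crosses show the freed folds. Slc16a3, Egln3 and Bnip3 lie above 3, and most members lie right of the median of all genes (dashed line, 0.17).

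With freed folds (less the GC and length trend), 13 of the 19 calls stood, 7 enzymes and 6 others, and the median log2 fold was 0.72 for the enzymes and 0.71 for the others. Gpi1 (0.72), Eno3 (0.53), Pfkm (0.47), Slc2a1 (0.99), Vegfa (0.91) and Epas1 (0.79) were then less than 2-fold apart. Bnip3, with 41.6% GC, then had 3.36, Egln3 2.85, Slc16a3 (58.9% GC) 2.59, Tpi1 1.85, Ldha 1.53, Gapdh 1.52 and Aldoa 1.49. TMM scaling, and subtraction of the median fold of all genes, gave 13 calls each, all higher. The share of all genes was not counted under these settings or with freed folds. The summed RPKM of the 7 pluripotency markers was 2122 in shLuc and 2240 in shSmyd5 at 24 h, and none of them was 2-fold apart. The endoderm markers summed to 6.69 and 21.1, with 2 of 2 at RPKM 3 higher and Afp, Ttr and Apoa1 under 1 in both libraries, and their part in these folds was not tested.

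Whether the fold at 24 h departed from that at the other 4 stages was tested with a term of its own in the edgeR fit. No gene passed at any stage after adjustment (0 of 12277). In simulated data, where all genes had the same common spread, this test found 2 of 100 genes changed 4-fold at 24 h. At an unadjusted p under 0.05 the fold at 24 h was higher for 8 enzymes and 6 other members of the 39 tested, where 6.1% of all genes were. The lowest adjusted p-values were those of Slc16a3 (a departure of 3.60 on the log2 scale, adjusted p = 0.10), Egln3 (2.30, adjusted p = 0.10), Pfkl (2.502, adjusted p = 0.12) and Tpi1 (2.20, adjusted p = 0.13). limma called none, and DESeq2 called 9 members, all higher: Pfkl, Aldoa, Tpi1, Gapdh, Eno1, Ldha, Slc16a3, Egln3 and Bnip3, where it called 2.28% of all genes.

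The promoters of the members with the highest folds at 24 h are shown because HIF factors bind the core letters ACGTG or GCGTG. RefSeq promoters (GRCm38.p6, 250 bases before to 50 after the start) were held for 37 of the 41 members, and Slc2a3, Epas1, Bnip3l and Ndrg1 had no entry. On either strand, 43 of the 54 promoters of members (79.6%) held ACGTG or GCGTG, against 43.8% of 32851 promoters of all genes. ACGTG was in 53.7% of the members' promoters and in 19.6% of all, and GCGTG in 57.4% and 32.4%. The share with either was 80.8% for the enzymes and 78.6% for the others. The members were listed as genes of glucose use and of the response to low oxygen. The promoters of all genes were not matched to theirs in GC content, and the difference in share was not tested. Among the members with a motif, Adm, Slc16a3, Egln3 and Bnip3 had the highest folds, and the 250 bases before their start are given 5′ to 3′ on the gene's strand, with the motifs on both strands in capitals (CACGT and CACGC are the reverse complements, and CACGTG holds ACGTG on both strands). They were found unchanged in mm9, Adm at chr7:117770921-117771170, plus strand, Slc16a3 at chr11:120810131-120810380, plus strand, Egln3 at chr12:55304862-55305111, minus strand, and Bnip3 at chr7:146101190-146101439, minus strand.
Adm: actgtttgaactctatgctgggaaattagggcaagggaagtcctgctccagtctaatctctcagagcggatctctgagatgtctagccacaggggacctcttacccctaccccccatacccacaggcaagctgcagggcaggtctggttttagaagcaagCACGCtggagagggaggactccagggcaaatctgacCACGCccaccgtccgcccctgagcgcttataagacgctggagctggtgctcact
Slc16a3: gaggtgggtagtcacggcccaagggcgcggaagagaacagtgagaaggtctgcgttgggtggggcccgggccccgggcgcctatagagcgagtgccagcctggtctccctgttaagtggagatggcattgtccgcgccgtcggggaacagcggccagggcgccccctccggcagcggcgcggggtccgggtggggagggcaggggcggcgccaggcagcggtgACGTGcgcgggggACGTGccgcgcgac
Egln3: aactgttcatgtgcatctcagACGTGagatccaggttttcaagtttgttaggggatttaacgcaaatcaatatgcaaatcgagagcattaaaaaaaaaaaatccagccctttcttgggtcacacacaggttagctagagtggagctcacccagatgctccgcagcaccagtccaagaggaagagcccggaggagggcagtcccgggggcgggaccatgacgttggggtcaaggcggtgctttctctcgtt
Bnip3: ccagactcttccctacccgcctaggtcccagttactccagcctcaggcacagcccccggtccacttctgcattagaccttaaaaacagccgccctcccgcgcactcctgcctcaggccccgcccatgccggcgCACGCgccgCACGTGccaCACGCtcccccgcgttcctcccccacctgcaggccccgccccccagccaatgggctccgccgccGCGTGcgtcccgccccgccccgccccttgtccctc
The Slc16a3 promoter lies within the annotated gene, before a start that is not its first. A match is a match of letters only, and binding was not measured in these libraries.

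Across the 5 stages, a group of hypoxia genes outside glycolysis was higher in shSmyd5 each time. Of the 35 members tested at every stage, 8 were higher in shSmyd5 at all 5 stages, where 5.69% of all 7137 such genes were, and 1 was lower (Kdm3a), where 4.53% were. The 8 were Epas1, Egln3, Bnip3, Bnip3l, Vegfa, Ndrg1, Ero1l and Mxi1, with no glycolytic enzyme among them. Epas1, Egln3, Bnip3, Vegfa, Ndrg1, Ero1l and Mxi1 were also higher at all 5 stages with TMM scaling, after subtraction of the median fold of all genes and with freed folds, and in each case 1 enzyme joined them (Pgk1, Pgk1 and Aldoa). Kdm3a was lower at all 5 with none of these.

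Epas1 (chr17:87153247-87232750, plus strand) had RPKMs of 7.06, 34.8, 4.72, 18.5 and 47.5 in shLuc and 10.5, 71.9, 45.4, 64.3 and 115 in shSmyd5. Its shSmyd5 value was higher at each stage, with log2 folds of 0.57, 1.04, 3.24, 1.79 and 1.28, and at day 6 it was 3.24 (3.17 to 3.31). In shLuc the level was 34.8 at 24 h, 4.72 at day 6 and 47.5 at day 14, while no shSmyd5 EB library was under 45. Vegfa had 5.33, 3.54, 25.95, 37.3 and 57.8 in shLuc and 8.97, 7.80, 57.5, 55.95 and 80.7 in shSmyd5, with log2 folds of 0.74, 1.12, 1.14, 0.58 and 0.48. Its 2 lines overlapped in range, but the shSmyd5 value was the higher at each stage, by a log2 fold of 0.48 or more.

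Bnip3 had RPKMs of 10.6, 5.75, 102, 54.2 and 84.7 in shLuc and 28.1, 51.96, 196, 80.7 and 101 in shSmyd5, and its log2 fold went from 3.15 at 24 h to 0.25 at day 14. Bnip3l had 11.6, 25.2, 79.8, 66.6 and 80.2 in shLuc and 24.4, 35.8, 99.3, 78.1 and 81.9 in shSmyd5, with a log2 fold of 1.06 (0.86 to 1.27) in ES cells and 0.03 (-0.01 to 0.07) at day 14, where the interval held 0. Egln3 had 6.16, 2.14, 45.1, 22.2 and 30.5 in shLuc and 9.58, 19.8, 47.1, 41.1 and 54.3 in shSmyd5, with log2 folds of 0.63, 3.15, 0.06, 0.88 and 0.83. In contrast to these mitophagy and sensor genes, Higd1a, a hypoxia-induced protein of the inner mitochondrial membrane, was higher at 4 stages and lower at day 14, with 6.89, 12.2, 22.5, 14.02 and 21.7 in shLuc and 17.8, 22.3, 35.5, 16.5 and 17.5 in shSmyd5. Egln1 showed no such order, with log2 folds of -0.13, 0.69, 0.05, -0.33 and -0.12.

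Ndrg1 had RPKMs of 6.32, 0.937, 13.7, 19.5 and 31.4 in shLuc and 7.81, 4.21, 22.6, 43.5 and 69.6 in shSmyd5, and log2 folds of 0.30, 2.05, 0.72, 1.15 and 1.14. Mxi1 had 3.93, 3.95, 11.1, 11.4 and 17.8 in shLuc and 5.42, 5.75, 12.8, 21.9 and 33.4 in shSmyd5, and Ero1l 5.64, 10.5, 69.2, 57.6 and 77.7 in shLuc and 10.8, 13.3, 92.8, 97.3 and 118 in shSmyd5, with shSmyd5 above shLuc in each pair. Car12 (chr9:66561493-66614652, plus strand) was scarce in ES cells and at 24 h and more abundant later, with 0.145, 0.0561, 3.05, 4.17 and 5.03 in shLuc and 0.320, 0.231, 9.19, 14.7 and 18.1 in shSmyd5. From day 6 its log2 folds were 1.56 (1.44 to 1.68), 1.80 (1.63 to 1.96) and 1.83 (1.71 to 1.95). Adm had 0.649, 0.0754, 9.21, 2.95 and 4.74 in shLuc and 0.991, 1.99, 22.2, 4.87 and 9.94 in shSmyd5, also with shSmyd5 on the higher side in each pair, though under 3 in both libraries in ES cells and at 24 h.

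**Figure D4:**
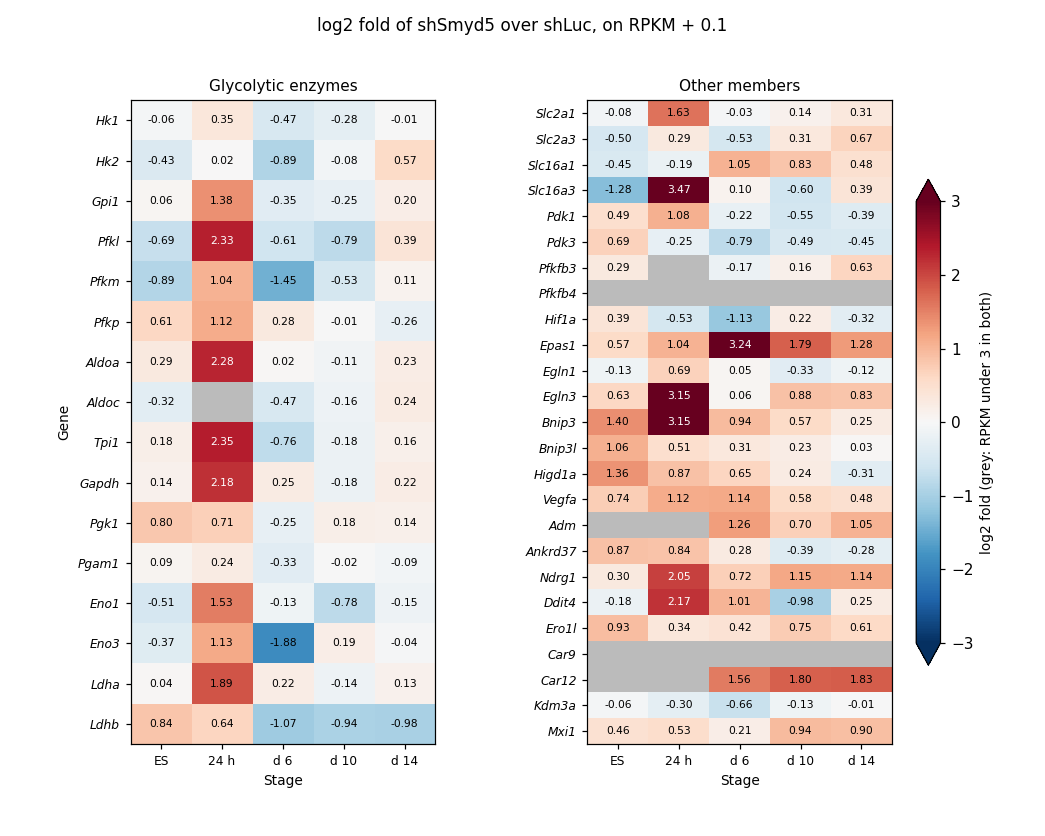
The log2 fold of shSmyd5 over shLuc (on RPKM plus 0.1) of the 41 members at each of the 5 stages, 1 pair of libraries per cell, red for higher and blue for lower in shSmyd5; grey cells had an RPKM under 3 in both libraries. The 24 h column is red for most enzymes, and Epas1, Bnip3, Vegfa and Ndrg1 are red at all 5 stages.

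An effect of the knockdown shared by the 5 stages was tested with edgeR's quasi-likelihood test with the stage as a block. No gene of the 12277 passed at an adjusted p of 0.05 in either direction (0% higher and 0% lower), Smyd5 included (log2 fold -2.63, SE 0.51, adjusted p = 0.11). At an unadjusted p under 0.05, 12 of the 23 other members and 0 of the 16 enzymes passed, all 12 higher in shSmyd5, where 5.68% of all genes passed as higher and 5.93% as lower. They were Car12 (log2 fold 1.82, SE 0.25, adjusted p = 0.080), Ndrg1 (1.15, SE 0.23, adjusted p = 0.12), Vegfa (0.88, SE 0.20, adjusted p = 0.17), Epas1 (1.62, SE 0.39, adjusted p = 0.17), Bnip3 (1.30, SE 0.35, adjusted p = 0.22), Mxi1, Ero1l, Egln3, Adm, Pfkfb3, Higd1a and Bnip3l. limma called 0 members. DESeq2 called 8 (Epas1, Egln3, Bnip3, Vegfa, Adm, Ndrg1, Ero1l and Car12, all higher), where it called 2.71% of all genes. With no RPKM filter edgeR called 6 of these, without Adm and Ero1l, and 0.822% of all genes. Car12 alone of the members passed without the pair of ES cells (adjusted p = 0.049), where 0.0489% of all genes did.

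**Figure D5:**
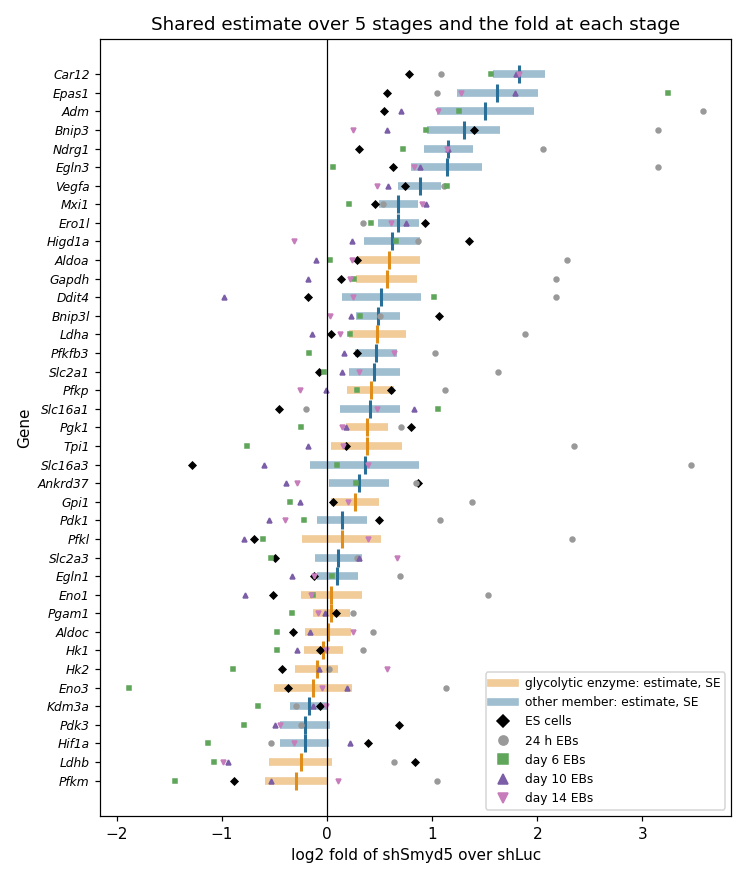
The log2 fold of shSmyd5 over shLuc shared by the 5 stages in the edgeR fit (vertical tick, with a bar of 1 SE each way) for the 39 members tested, and the fold at each stage as points. Car12, at 1.82, and Epas1, at 1.62, have the highest estimates, and 12 members, all outside the enzyme chain, had an unadjusted p under 0.05.

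At day 6 the other members had a higher median log2 fold than the enzymes, a difference that was not tested. Of 39 members tested, 6 were at least 2-fold higher and 4 at least 2-fold lower in shSmyd5, where 8.18% of all 9461 genes were higher and 19.4% lower. Less the median log2 fold of all genes, which was -0.35 at this stage, the median was -0.06 for the 16 enzymes and 0.63 for the 23 others. The 6 were Epas1, Car12, Adm (1.26), Vegfa (1.14), Slc16a1 (1.05) and Ddit4 (1.01). The 4 lower were Eno3 (5.12 in shLuc and 1.32 in shSmyd5; log2 fold -1.88, -2.16 to -1.61), Pfkm (-1.45), Hif1a (57.1 in shLuc and 26.02 in shSmyd5; -1.13, -1.17 to -1.09) and Ldhb (-1.07). TMM scaling, and likewise subtraction of the median fold, gave 9 higher and 2 lower, and freed folds gave 8 and 3. The shares of all genes under these settings were not counted, so these counts have no share to be set against. Hif1a and Epas1, the genes of the 2 HIF α subunits, lay on opposite sides, at freed log2 folds of -0.69 and 3.72, so that Hif1a was then less than 2-fold lower. Subtraction of the median fold of all genes alone gave -0.78 for Hif1a and 3.59 for Epas1. The 7 endoderm markers summed to 148 in shLuc and 956 in shSmyd5 at day 6, with 6 of 7 at least 2-fold higher and none at 0, while 5 of the 7 pluripotency markers (sums 922 and 480) were at least 2-fold lower, and the part of either in these folds was not tested. At days 10 and 14 the endoderm sums were 1660 and 1718, then 4106 and 3943, where the log2 fold of Epas1 was 1.79 and 1.28. Of the 7 endoderm markers, 4 were still at least 2-fold higher in shSmyd5 at day 10 (Gata4 at a log2 fold of 1.51, Sox17 at 1.50, Dab2 at 1.18 and Gata6 at 1.03) and 2 at day 14 (Gata4 at 1.56 and Sox17 at 1.20), none was 2-fold lower, and their part in the Epas1 fold was not tested.

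At days 10 and 14 no enzyme was 2-fold apart in RPKM. At day 10, 3 of 39 members were at least 2-fold higher (Epas1, Car12 and Ndrg1) and none lower, where 3.15% of all genes were higher and 6.51% lower. At day 14 it was 4 of 39 (Epas1, Car12, Ndrg1 and Adm) and none lower, where 3.17% were higher and 4.07% lower. Ldhb came nearest among the enzymes, with log2 folds of -0.94 (-1.09 to -0.79) and -0.98 (-1.09 to -0.88). With freed folds Ldhb was 2-fold lower at day 14 (-1.04), and TMM scaling also gave 4 members higher and 1 lower there. Shares of all genes were not counted for either setting. At the same stages the neural markers summed to 74.0 in shLuc and 6.68 in shSmyd5, then 99.8 and 6.83, with 5 of 5 and 4 of 5 tested at least 2-fold lower. Other sums differed too: fibroblast and mesenchyme markers had 504 and 190, then 2801 and 1595, and endothelial markers 59.9 and 39.6, then 62.8 and 35.3. Muscle markers had 24.0 and 55.4, then 102.5 and 79.5, and erythroid markers 601 and 277, then 105 and 313. The part of any of these cell types in the Ldhb fold was not tested. Ddit4 was lower at day 10 (109 in shLuc and 55.4 in shSmyd5; -0.98, -1.06 to -0.89), after it had been 2-fold higher at 24 h and day 6.

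In ES cells 3 of 37 members were at least 2-fold higher in shSmyd5, all mitochondrial: Bnip3 (10.6 in shLuc and 28.1 in shSmyd5; 1.40, 1.11 to 1.69), Higd1a (6.89 in shLuc and 17.8 in shSmyd5; 1.36, 1.02 to 1.71) and Bnip3l (1.06). Slc16a3 was lower (33.4 in shLuc and 13.7 in shSmyd5; -1.28, -1.43 to -1.13). Among all 9329 genes 4.52% were higher and 11.3% lower. The shLuc library had the fewest reads of all, and with freed folds only Higd1a was still 2-fold apart (1.42), with Bnip3 at 0.76, Bnip3l at 0.59 and Slc16a3 at -0.42. Pfkfb4 and Car9 stayed under an RPKM of 2 in all libraries and were called nowhere. Of the other members called at no stage, Pdk3, Pfkfb3, Ankrd37, Kdm3a, Pgk1, Pgam1, Hk1, Hk2 and Aldoc lay between log2 folds of -0.89 and 0.87 at every stage where they were tested.

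Further genes of the pathway were counted in the same way. Of 20 other glycolysis genes counted, 3 of 7 tested were at least 2-fold higher at 24 h and none lower, and at day 6 it was 3 higher and 1 lower of 9. The shares of all genes were 13.0% higher and 4.26% lower at 24 h and 8.18% higher and 19.4% lower at day 6. Pkm2, pyruvate kinase of the last step, followed the enzymes at 24 h, with 99.7 in shLuc and 269 in shSmyd5 (log2 fold 1.43), and had 542 and 262 at day 6 (-1.05). Brp44 and Brp44l, the 2 subunits of the carrier that takes pyruvate into mitochondria, were higher at day 6 (2.94 and 26.9, log2 fold 3.15; 5.24 and 21.3, log2 fold 2.01). Hkdc1, a hexokinase-like gene, was higher at day 6 too (0.871 and 5.04, log2 fold 2.40). Pdk4 and Pdk2, kinases that switch off pyruvate dehydrogenase, were higher at 24 h (1.25 and 1.22), at RPKMs under 4 in both lines.

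Of 16 components of the HIF pathway, 2 of 12 tested were higher at 24 h and none lower, and 2 were higher and 3 lower of 14 at day 6 (all genes: 13.0% higher and 4.26% lower at 24 h, 8.18% and 19.4% at day 6). Cited2, which competes with HIF for its coactivators, had RPKMs of 55.2 in shLuc and 242 in shSmyd5 at day 6 (log2 fold 2.13). Tceb2, elongin B of the VHL ubiquitin ligase, had 74.9 and 274 at day 6 (1.87) and was also higher at 24 h (1.16), as was the ubiquitin ligase Siah2 (1.23). Lower at day 6 were Arnt2, a partner of the HIF α subunits (-1.75), Hif1an, the asparagine hydroxylase that blocks HIF (-1.40), and the prolyl hydroxylase gene Egln2 (-1.27).

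Of 37 other HIF target genes in the files, 6 of 19 tested were higher at 24 h and none lower, with a median log2 fold of 0.68, and at day 6 it was 6 higher and 3 lower of 28, against the same shares of all genes. Stc2, a stanniocalcin, had 0.436 and 3.997 at 24 h (log2 fold 2.94), Bhlhe40, a transcriptional repressor, had 1.04 and 6.68 (2.58), and Mif, a cytokine, had 137.5 and 603 (2.13). At day 6 P4ha2 and Plod2, which hydroxylate collagen, had log2 folds of 1.97 and 1.93, and Rragd, a small GTPase of mTORC1 signaling, had -1.83. Over differentiation, 21 of 36 of these targets rose and 1 fell by day 14 against ES cells in the edgeR fit, where 25.6% of all genes rose and 20.6% fell. For the other glycolysis genes the counts were 4 and 2 of 13, and for the HIF pathway components 3 and 1 of 15.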

How the data were processed

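Gene expression was measured by RNA-Seq in 10 libraries, 1 per line and stage, grouped by the labels. The authors mapped reads to mm9 with Bowtie2 and CASAVA (versions not given in the sources used here) and deposited, for 29257 RefSeq transcripts, whole read counts and RPKM. Each library size was inferred as the median that the deposited RPKM, read count and length imply for transcripts with over 200 reads. With that size, 100% of these RPKM values lay within 1% of what read count and length give. Strand is unknown, since adapters were joined to double-stranded cDNA. For the RNA-Seq reads, the treatment of splice junctions and of several matches by the authors is not given in the sources used here.

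The members and all lists were chosen with earlier results of these data known. Members are named in full; of the further lists, up to 6 genes each with the largest fold at 24 h or day 6 are named, and 1 gene of the other glycolysis list is left out and not reported here. Folds are log2(RPKM + 0.1). The limits of an RPKM of 3 and a fold of 2 follow the study's RNA-Seq methods. The study also required an edgeR FDR limit, not applied to these folds, and used a smaller fold for its downstream analyses. Intervals cover counting error only. Positions come from GENCODE M1 on NCBIM37 (mm9), matched for all 41 members. Tests used edgeR 4.0.16 (TMM, quasi-likelihood) on read counts, with limma 3.58.1 and DESeq2 1.42.0 as alternatives (R 4.3.3), and matplotlib 3.10.9, scipy 1.17.1, pandas 2.3.3 and numpy 2.4.6 under Python 3.11.15 for the rest. The contrasts of days 6 and 10 with ES cells were added after the data were seen. The fit had a common biological coefficient of variation of 0.335 and 4 residual degrees of freedom for the knockdown. Simulated data of 12277 genes gave all genes this same common spread. There the shared test found 99 of 100 genes changed 4-fold and 32 of 100 changed 2-fold, with 3 false calls. The stage test found 63 of 100 changed 4-fold. In the measured data the shared edgeR test did not call Smyd5, at a log2 fold of -2.63 (adjusted p = 0.11). How far the simulated counts hold for genes whose spread differs from the common one was not tested. Pseudocount, RPKM limit, scaling, GC and length trend, choice of transcript, test, block and left-out stages were varied.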

Additional observations from a re-analysis of the deposited data

How the results depend on the processing

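Of 100 values recomputed for 13 results, 93 stayed within 1.5 times the value reported and 7 moved. A change of direction was not scored. The 93 include counts of 0 members that stayed at 0 in the shared and departure tests. In simulated data the departure test found 2 of 100 genes changed 4-fold at 24 h, so a repeated 0 there says little about stability. The number of members 2-fold apart in ES cells was 4 and became 1 when folds were freed of the GC and length trend, where the cause was not tested. The number of members with a knockdown effect shared by the stages was 0 with edgeR, 8 with DESeq2, 6 with no RPKM filter, and 0 to 1 when each stage was left out, with Car12 called without the pair of ES cells. Of all genes, DESeq2 called 2.71%, edgeR with no RPKM filter 0.822% and edgeR without the pair of ES cells 0.0489%. The number whose fold departed at 24 h was 0 with edgeR, 9 with DESeq2, and 0 to 1 when each stage was left out, with Slc16a3 called without the pair of day 10. Of all genes, DESeq2 called 2.28% and edgeR without the pair of day 10 called 0.285%. At day 6 DESeq2 called 1 member (Epas1) and 1.31% of all genes, where edgeR called 0. The cause of these differences between tools was not tested. The count of members higher at every stage used was 8 to 10 under the 5 alternatives, which were chosen after seeing the data. The alternative without 24 h EBs covered only the other 4 stages, with 8 members and 8.24% of all genes higher. Of all genes, 5.01% to 9.43% were higher throughout under these alternatives. The stage effect, called for 30 members, was called for 24 to 36. Of all genes it was called for 65.3%, and for 48.0% to 72.6% under the alternatives. The labels give no replicate numbers to pair. The lines were paired by stage in the shared test, which called 0 members with the stage as a block and 0 with no stage block. The shLuc ES cell library, with the fewest reads, limits the precision of its folds.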
